A study of Mus musculus with 20 samples.

Results

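*Hmgcs1*, *Idi1*, *Fdps*, *Fdft1*, *Sqle*, *Lss* and *Cyp51*, 7 genes of cholesterol synthesis, were followed through the bulk RNA-seq of the mouse cochlea before and after the onset of hearing. They are 7 of the 24411 genes in the deposited tables. They were listed by name, as enzymes that act between acetyl-CoA and the first sterols, and the rule uses no measured value. A further 15 genes of the same route, 7 genes that control it and 12 genes of cholesterol uptake are described beside them.

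The tissue was the sensory epithelium and spiral ganglion neurons of the apical coil, from C57BL/6N mice aged P7 or P22 that carried 1 or 2 copies of the *Bai1* tm2b allele. That allele lacks exons 3 and 4 of *Adgrb1*, the gene of the adhesion receptor BAI1, and holds a lacZ cassette, so that the long isoform is lost while a short isoform can still be made. *Bai1* tm2b/+ mice served as controls, and all mice carried the *Cdh23* ahl variant of the strain. Each library came from a pool of 4 mice. There were 3 libraries per genotype at P22, in 1 batch, and 7 per genotype at P7, in batches of 3 and 4. In what follows, *Bai1* tm2b/+ libraries are called control libraries and *Bai1* tm2b/tm2b libraries homozygous libraries. Replicates 5 to 7 of each genotype at P7 and all P22 libraries were deposited as estimated read counts, with 31108551 to 58807173 counts per library at P7 and 35725985 to 40350413 at P22. Replicates 1 to 4 at P7 were deposited as whole numbers that sum to 999644 to 999777 per library, as rounded values in TPM (transcripts scaled for length and to a fixed library total) would, so their depth is unknown.

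Cholesterol is built from acetyl-CoA through mevalonate, isoprenoid diphosphates, squalene and lanosterol, and most of these enzymes are under the control of the transcription factor SREBP2 (*Srebf2*). SREBP2 is carried out of the endoplasmic reticulum by SCAP and held back by the INSIG proteins when sterol is plentiful. Myelin is rich in cholesterol, and myelinating Schwann cells make much of their own rather than take it up from the blood. In bulk tissue, fewer cells of a type and less RNA per cell cannot be told apart.

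The labels were checked against the targeted gene and the expected cell types. *Adgrb1* stood at 152 to 167 CPM (counts scaled to a fixed library total) in the 3 control libraries and at 100 to 105 CPM in the 3 homozygous libraries at P22, at 32.1 to 56.4 against 21.6 to 31.2 CPM in the P7 libraries in counts, and at 7 to 12 against 9 to 12 in those in rounded TPM. These values sum the long and the short isoform and therefore test the labels only in part. Of the marker lists of neurons, hair cells, supporting cells and myelinating Schwann cells, no gene was at 0 in a whole group.

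The sequence around the gene start is shown for *Hmgcs1*, the member with the highest level, and for *Idi1*. Of the patterns searched, the sterol regulatory element pattern was in the window of *Hmgcs1* only. The window of *Idi1*, like those of *Lss* and *Cyp51*, held the CCAAT box alone, which is common in promoters. *Hmgcs1* (ENSMUSG00000093930.2, chr13:119690379-119708260, plus strand, GENCODE annotation of GRCm38) encodes the cytosolic enzyme that forms HMG-CoA. *Idi1* (ENSMUSG00000058258.14, chr13:8885501-8892451, plus strand) encodes the isomerase that yields dimethylallyl diphosphate. RefSeq windows on GRCm38.p6, from 250 bases before to 50 bases after the start, were at hand for 4 of the 7 genes (*Hmgcs1*, *Idi1*, *Lss* and *Cyp51*). The window of *Hmgcs1* is chr13:119690101-119690400 and that of *Idi1* chr13:8885356-8885655, both plus strand. Capitals mark the sterol regulatory element pattern TCACNCCAC, here as TCACCCCAC, and the CCAAT box, read as ATTGG on this strand.
Hmgcs1: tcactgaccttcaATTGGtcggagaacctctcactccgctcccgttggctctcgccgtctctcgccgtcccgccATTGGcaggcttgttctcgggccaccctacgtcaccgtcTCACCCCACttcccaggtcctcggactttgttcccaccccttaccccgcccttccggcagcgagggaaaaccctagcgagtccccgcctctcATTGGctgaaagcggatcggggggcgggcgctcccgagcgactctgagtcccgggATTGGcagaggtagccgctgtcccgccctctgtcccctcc
Idi1: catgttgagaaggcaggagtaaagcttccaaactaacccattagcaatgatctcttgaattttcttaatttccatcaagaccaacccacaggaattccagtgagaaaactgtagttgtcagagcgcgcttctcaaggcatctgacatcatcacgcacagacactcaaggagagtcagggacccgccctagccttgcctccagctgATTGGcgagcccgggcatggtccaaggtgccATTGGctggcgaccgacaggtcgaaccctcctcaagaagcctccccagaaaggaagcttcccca
The sterol regulatory element pattern, searched on both strands, was found in 1 of the 4 member windows, at position -137 from the start of *Hmgcs1*, in 0 of 16 windows of the other synthesis genes and in 1.24% of all 32851 windows. The CCAAT box, also searched on both strands, was found in 4 of 4 member windows, in 11 of 16 windows of the other synthesis genes (68.8%) and in 37.4% of all windows. *Hmgcs1* held 4 copies of the CCAAT box in its window. The patterns share no letters with each other at these matches. These are matches of letters, and binding was not measured.

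Between P7 and P22, *Hmgcs1*, *Fdps* and *Fdft1* rose, while *Idi1*, *Sqle*, *Lss* and *Cyp51* did not pass the test in either direction. These values compare the 6 P22 libraries with the 6 P7 libraries in counts, both genotypes together, by the quasi-likelihood test of edgeR with p adjusted over 16314 genes. Levels are CPM on a single scale over the 12 libraries (trimmed mean of M values, TMM). P7 and P22 were separate batches in separate tables, so age and batch cannot be told apart.

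*Hmgcs1* measured 292, 376 and 302 CPM in P7 controls, and 304, 228 and 322 CPM in P7 homozygous libraries. At P22 it measured 483, 478 and 439 CPM (controls) and 464, 485 and 417 CPM (homozygous). Every P22 library was above every P7 library. The gene was 1.52-fold higher at P22 (log2 fold change 0.60, SE 0.0933, adjusted p = 5.65e-05).

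*Fdft1* (chr14:63145150-63179578, minus strand) encodes squalene synthase, the first step committed to sterols. It measured 62.2, 75.9 and 66.3 CPM (controls) and 58.4, 55.8 and 69.4 CPM (homozygous) at P7, and 113, 122 and 99.8 CPM (controls) and 110, 120 and 121 CPM (homozygous) at P22. It had the largest difference of the 7 genes, with no overlap between the ages. The gene was 1.76-fold higher at P22 (log2 fold change 0.82, SE 0.0726, adjusted p = 2.83e-07). Of its exon bases, 18.3% overlap *Ctsb*, the gene of cathepsin B on the opposite strand, and whether counting used strand is not given in the sources used here. *Ctsb* ranged from 509 to 1348 CPM and differed between the ages by a log2 fold change of 1.01 (adjusted p = 4.33e-08). *Fdft1* was the only member with fractional counts at P22 (6 of 6 libraries). How much of its difference comes from shared reads was not tested.

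*Fdps* (chr3:89093588-89101959, minus strand) encodes farnesyl diphosphate synthase, whose product feeds sterols, ubiquinone, dolichol and protein prenylation. It measured 64.6, 82.8 and 67.7 CPM (controls) and 61.6, 51.3 and 70.7 CPM (homozygous) at P7. At P22 the values were 92.5, 91.9 and 77.3 CPM and 93.3, 92.0 and 86.1 CPM. Of the P22 libraries 1 control, at 77.3 CPM, lay below the highest P7 library. The gene was 1.34-fold higher at P22 (log2 fold change 0.42, SE 0.0859, adjusted p = 0.000564), under the size of 0.5 required for a call. On the same strand, 26.7% of its exon bases overlap the gene model *Gm43738*, which is not in the tables used here.

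The 4 genes that did not pass lay close to 0. *Sqle* (chr15:59315077-59331192), squalene epoxidase, ranged from 73.9 to 102 CPM at P7 and from 77.3 to 102 CPM at P22, with a log2 fold change of 0.02 (95% interval -0.11 to 0.16). *Cyp51* (chr5:4081145-4104746), which removes the first methyl group of lanosterol, ranged from 79.2 to 127 CPM and from 98.2 to 119 CPM and differed by 0.06 (-0.11 to 0.23). *Idi1* ranged from 69.3 to 122 CPM at P7 and from 92.3 to 122 CPM at P22 and differed by 0.07 (-0.11 to 0.26). *Lss* (chr10:76531588-76557138), which closes the sterol rings to give lanosterol, ranged from 43.2 to 60.7 CPM and from 45.2 to 57.5 CPM and differed by -0.10 (-0.26 to 0.07). All 4 intervals leave out a difference as large as that of *Hmgcs1*.

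Of the 7 genes, 3 passed the threshold as higher, against 38.2% of all genes tested, and 0 as lower, against 42.0%. With the size and error limits added (log2 fold change over 0.5, SE under 0.5), 2 were called higher, against 25.9% of all genes, and 0 lower, against 28.7%. The groups did not overlap for 2 of 7, against 62.6% of all genes. The median log2 fold change was 0.07 for the 7 genes and -0.05 for all genes. By the DESeq2 Wald test *Hmgcs1*, *Fdps* and *Fdft1* passed as higher and no member as lower.

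The scaling matters for the genes near 0. With library totals in place of TMM, the median of all genes moved by -0.29 on the log2 scale, *Hmgcs1* and *Fdft1* still passed as higher (0.31 and 0.53), *Fdps* no longer did (0.13, adjusted p = 0.163), and *Sqle* (-0.26), *Lss* (-0.39) and *Cyp51* (-0.23) passed as lower. *Idi1* also changed sign, from 0.07 to -0.22, and did not pass (adjusted p = 0.0636). Relative to the median of all genes, the values were nearly the same under both scalings, with 0.65 and 0.65 for *Hmgcs1*, 0.47 and 0.47 for *Fdps*, 0.07 and 0.08 for *Sqle*, and -0.05 and -0.05 for *Lss*. Under library totals the split of all genes past the threshold was 4426 higher and 9014 lower, against 6239 and 6854. In the control libraries alone *Hmgcs1* (0.57), *Fdps* (0.32) and *Fdft1* (0.75) also passed as higher, and in the homozygous libraries alone they did too (0.66, 0.55 and 0.92).

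**Figure D1:**
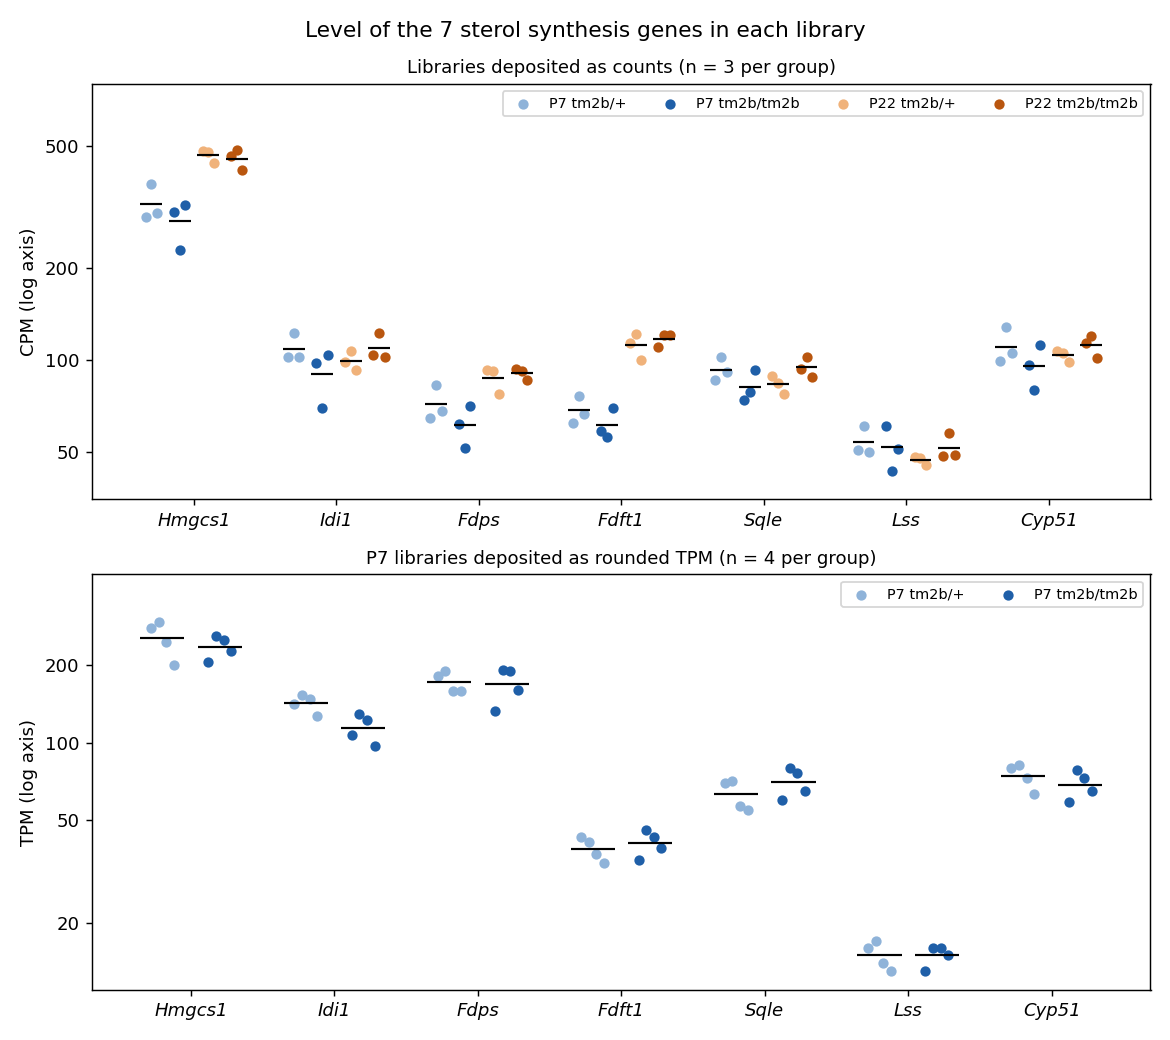
Level of the 7 genes in each library, as CPM for the libraries in counts (upper panel, 3 per group) and TPM for the other P7 libraries (lower panel, 4 per group), on log axes. Points are libraries and lines are group means. *Hmgcs1* and *Fdft1* lie higher in every P22 library than in every P7 library, and *Idi1* is lower in homozygous libraries in the lower panel, with overlap.

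The make-up of the group differed between the ages. *Hmgcs1* held 38.5% to 39.7% of the summed counts of the 7 genes in P7 control libraries and 46.2% to 47.2% in those at P22. The share of *Lss* was 6.36% to 6.70% and then 4.59% to 4.86%. The summed level of the 7 genes was 605 to 946 CPM in the 6 P7 libraries and 929 to 1097 CPM in the 6 P22 libraries, with 1 P7 control library, replicate 6, above the lowest P22 library.

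Scaled for length, *Hmgcs1* was highest and *Lss* lowest in each set of libraries. For the libraries in counts, the length was that of all annotated exons of a gene merged, not that of a transcript. At P7 the order in CPM per kilobase (mean ± SD, n = 6) was *Hmgcs1* (66.2 ± 10.4), *Idi1* (28.3 ± 4.85), *Cyp51* (23.3 ± 3.66), *Fdps* (15.8 ± 2.48), *Sqle* (15.7 ± 1.84), *Fdft1* (15.3 ± 1.76) and *Lss* (4.88 ± 0.629). Only *Hmgcs1* and *Lss* were apart from their neighbors in that order, and neighbors among the 5 genes between them overlapped. At P22 *Fdft1* stood between *Idi1* (29.8 ± 2.91) and *Cyp51* (24.3 ± 1.78) and overlapped both. In the libraries in rounded TPM, a unit that already accounts for length, *Hmgcs1* (245 ± 33.3 TPM, n = 8) was followed by *Fdps* (170 ± 21.0) and *Idi1* (128 ± 19.4). *Fdps* thus stood above *Idi1* and *Cyp51* in TPM but below both in CPM per kilobase at P7. The order between *Hmgcs1* and *Lss* therefore depended on the set and unit, and the part of the length used was not tested.

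The other enzymes of the route went both ways between the ages. Of 15, 5 rose, 6 fell and 4 did not pass, with a median log2 fold change of -0.15. Of all genes tested, 38.2% rose and 42.0% fell, so this split was near that of all genes. *Pmvk*, which phosphorylates phosphomevalonate, rose from a mean of 26.4 to 50.5 CPM (log2 fold change 0.93, SE 0.0805, adjusted p = 2.16e-07). *Msmo1*, which removes methyl groups after the *Cyp51* step, rose from 64.3 to 120 CPM (0.90, SE 0.0754, adjusted p = 1.63e-07). *Sc5d* (0.56) and *Ebp* (0.55), later steps on the sterol ring, also rose. *Hsd17b7*, a ketoreductase of the same demethylation steps as *Msmo1*, fell from 130 to 42.4 CPM (-1.62, SE 0.107, adjusted p = 1.60e-08). *Tm7sf2* (-0.44), *0610007P14Rik* (-0.41), *Nsdhl* (-0.31), *Lbr* (-0.22) and *Acat2* (-0.19) also fell. *Dhcr7*, which encodes a reductase at the end of the route, had 43.6 CPM at P7 and 44.6 CPM at P22 (0.03, adjusted p = 0.656) and did not pass. *Hsd17b7* and *Msmo1*, which act in the same steps, thus differed in opposite directions.

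**Figure D2:**
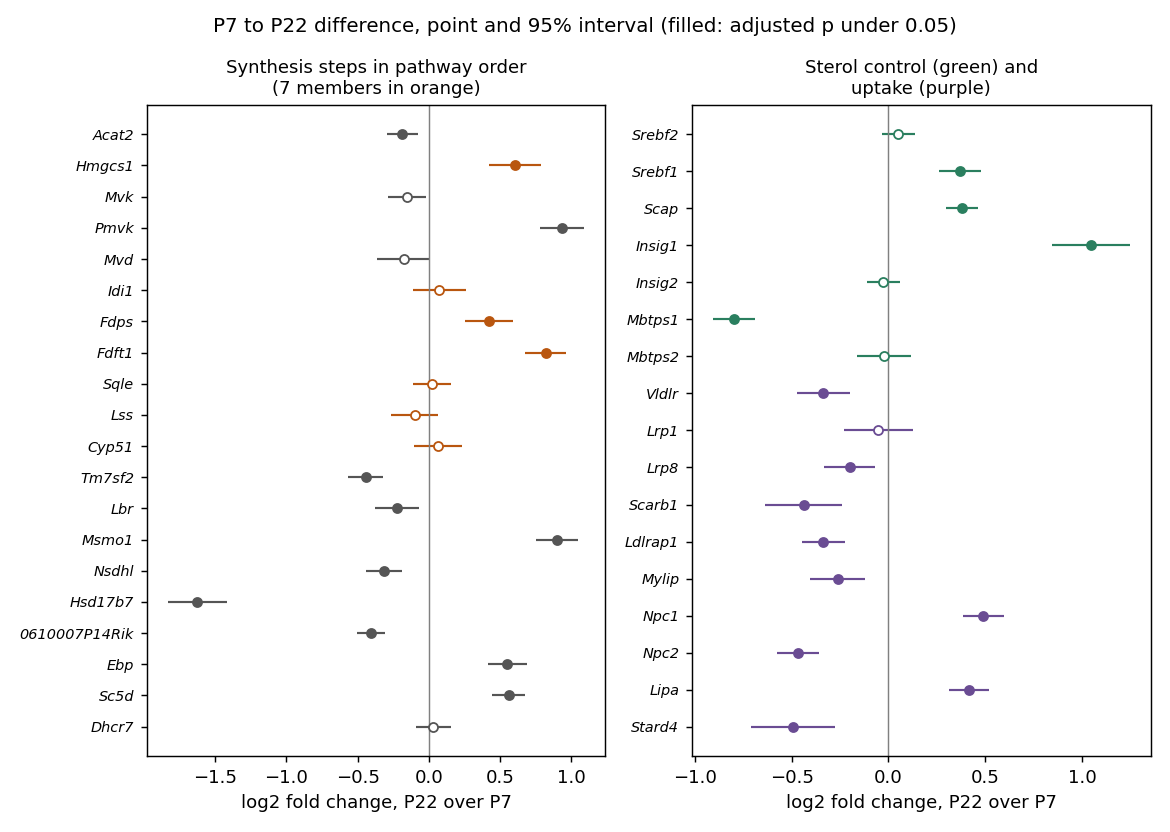
Log2 fold change of P22 over P7 (x axis) with its 95% interval for 20 synthesis genes in the order in which their enzymes act (left) and for 7 control and 10 uptake genes (right), over 6 libraries at each age. Filled points have an adjusted p under 0.05. *Hmgcs1*, *Fdps*, *Fdft1*, *Pmvk* and *Msmo1* lie to the right of 0 and *Hsd17b7* at -1.62.

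Among the genes that control the route, *Srebf2* had 171 and 177 CPM (log2 fold change 0.05, SE 0.0433, adjusted p = 0.292). Of the 7 control genes, 3 rose, 1 fell and 3 did not pass, beside 38.2% of all genes higher and 42.0% lower. *Insig1*, which retains SCAP and is itself a target of SREBP, rose from 57.9 to 120 CPM, a 2.06-fold difference (1.04, SE 0.102, adjusted p = 7.52e-07). *Scap* (0.38) and *Srebf1* (0.37) rose, and *Mbtps1*, a protease that cuts SREBP in the Golgi, fell (-0.80, SE 0.0556).

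Of 12 uptake genes, 3 rose and 8 fell, beside 38.2% of all genes higher and 42.0% lower. *Npc1*, which carries cholesterol out of lysosomes, rose from 105 to 148 CPM (0.49, SE 0.0535, adjusted p = 2.16e-06), as did the lysosomal lipase gene *Lipa* (0.42), whereas *Npc2*, the partner of *Npc1*, fell (-0.47). *Stard4*, a carrier of sterol between membranes, fell (-0.49). *Vldlr*, *Lrp8* and *Scarb1*, other lipoprotein receptors, were among those that fell (-0.34, -0.20 and -0.44). With library totals, *Mvd* (-0.46) and *Lrp1* (-0.35) passed as lower too, *Srebf2* (-0.24) and *Dhcr7* (-0.26) turned to lower, and *Srebf1* (0.08) and *Scd2*, a fatty acid desaturase (0.13), no longer passed as higher.

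Genes of sterol efflux and storage and of fatty acid synthesis were mostly higher at P22, with 7 of 10 higher and 1 lower in each list. Of all genes, 38.2% were higher and 42.0% lower. *Abcg1*, an exporter of cholesterol, rose from 41.1 to 131 CPM (1.67) and *Nr1h3*, a sterol-activated nuclear receptor, from 4.05 to 14.4 CPM (1.83), while *Abca1*, another exporter, fell from 154 to 56.2 CPM (-1.45). *Acss2*, which makes acetyl-CoA from acetate, rose from 37.0 to 110 CPM (1.57), *Acly*, which makes it from citrate (0.58), and *Scd2* (0.42) rose, and *Fads2*, a fatty acid desaturase, fell from 101 to 37.3 CPM (-1.43).

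The myelin list moved with age over a wider range than the 7 genes. Of 17 genes of myelinating Schwann cells, 15 rose and 1 fell, with a median of 1.04. The shares of all genes, for this and the marker lists below, were 38.2% higher and 42.0% lower. *Mbp* and *Pmp22*, which encode structural proteins of myelin, rose by 0.86 (SE 0.165) and 0.85 (SE 0.197), and *Drp2* (2.42), *Gldn* (1.94) and *Fa2h* (1.79) were among the largest differences of the list. The summed level of the list was 6323 to 18425 CPM at P7 and 24788 to 29878 CPM at P22. Other cell types differed as well. Of 10 neuron markers 8 rose and 2 fell, with sums of 1130 to 2884 CPM at P7 and 11073 to 16957 CPM at P22. Of 7 supporting cell markers 1 rose and 6 fell (5549 to 10510 against 941 to 1243 CPM), of 9 hair cell markers 1 rose and 5 fell (395 to 666 against 278 to 469 CPM), of 8 central glia markers 5 rose and 2 fell, and all 8 proliferation markers and all 6 bone markers fell. None of the neuron, supporting cell, hair cell, proliferation and bone lists had a gene at 0 in a whole group in counts. Their part in the differences of the sterol genes was not tested.

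At P22, no member passed the test between genotypes. Of the 7 genes, 0 were higher or lower at an adjusted p under 0.05 by edgeR over 15443 genes, where 5.04% of all genes passed as higher and 7.28% as lower. An unadjusted p under 0.05 was reached by 1 of 7, *Sqle*, and by 4431 of the 15443 genes. The DESeq2 Wald test passed 0 of 7. *Sqle* measured 88.0, 83.7 and 77.3 CPM (controls) and 93.3, 102 and 87.9 CPM (homozygous), which overlap by a small margin. Its log2 fold change was 0.19 (SE 0.0722, adjusted p = 0.108). *Lss*, at 48.1, 47.5 and 45.2 CPM against 48.4, 57.5 and 48.6 CPM, was the 1 gene of 7 whose groups did not overlap, against 33.7% of all genes, and its difference was 0.14 (SE 0.0783, adjusted p = 0.266). The 5 others ranged from -0.03 for *Hmgcs1* to 0.15 for *Idi1*. The median was 0.11 for the 7 genes and 0.013 for all genes, and the highest upper bound of a 95% interval was 0.33, for *Sqle*.

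In the rest of the route none of the genes past the threshold at P22 met the size limit of a call. Of all genes tested, 5.04% passed as higher and 7.28% as lower, for these and the marker lists below. Of the 15 other synthesis genes 1 rose, *Lbr*, which encodes a sterol reductase of the nuclear envelope (29.8 to 35.2 CPM, 0.25, SE 0.0713, adjusted p = 0.0486). It passed in 3 of 11 alternative settings. *Dhcr7* (0.11) did not pass, nor did any of the 7 control genes, with *Srebf2* at -0.01 and *Insig1* at 0.19. Of the uptake genes *Vldlr* was higher (0.39, SE 0.0927, adjusted p = 0.0232) and *Lipa* lower (-0.24, SE 0.0609, adjusted p = 0.0298). Of 10 efflux and storage genes 2 were higher, *Apoe* (0.29, adjusted p = 0.0389) and *Cyp27a1* (0.37, adjusted p = 0.0449). Of 10 fatty acid genes 2 were lower, *Elovl6* (-0.31, adjusted p = 0.00862) and *Acss2* (-0.24, adjusted p = 0.0483). Of 11 alternative settings, *Elovl6* passed in 10, *Vldlr* in 8, *Apoe* in 6, *Lipa* and *Cyp27a1* in 5 and *Acss2* in 4. *Mbp* passed in 11 of 11 and *Gldn* in 6. In these libraries 3 of 17 myelin genes were higher (*Mbp* by 0.54 and *Gldn* by 0.25 among them), *Pmp22* (-0.17) did not pass, 8 of 10 neuron markers were lower (sums 15059 to 16957 against 11073 to 12642 CPM), 7 of 8 central glia markers were higher (388 to 431 against 518 to 866 CPM), 4 of 9 hair cell markers were higher (278 to 301 against 382 to 469 CPM) and 4 of 7 supporting cell markers were higher (941 to 1094 against 1186 to 1243 CPM). Their part in the values of the sterol genes was not tested.

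At P7 in counts, the 7 genes had fitted differences from -0.24 (*Idi1*, SE 0.158) to -0.03 (*Lss*, SE 0.145), with a median of -0.16 against 0.0028 for all genes, and none passed. By edgeR 0.0% of 16026 genes passed in either direction, 763 had an unadjusted p under 0.05, none of them a member, and DESeq2 passed 0 of the 7. Groups overlapped for all 7 genes, where 10.7% of all genes did not overlap. The lowest adjusted p among the 7 was 0.894. Homozygous replicate 6 had the lowest value of the 12 libraries in counts for 6 of the 7 genes: 228 CPM for *Hmgcs1*, 69.3 for *Idi1*, 51.3 for *Fdps*, 55.8 for *Fdft1*, 43.2 for *Lss* and 79.2 for *Cyp51*. It was also the shallowest library, with 31108551 counts, and had the lowest summed myelin level, 6323 CPM. Without it the differences lay between -0.13 and 0.09, with *Lss* above 0. All 17 myelin genes were also fitted below 0 in this comparison, none past the threshold, with a median of -0.49. *Dhcr7* (-0.10), *Insig1* (-0.12) and *Srebf2* (-0.09) did not pass, and no gene of the synthesis, control, uptake, efflux, fatty acid or marker lists did.

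**Figure D3:**
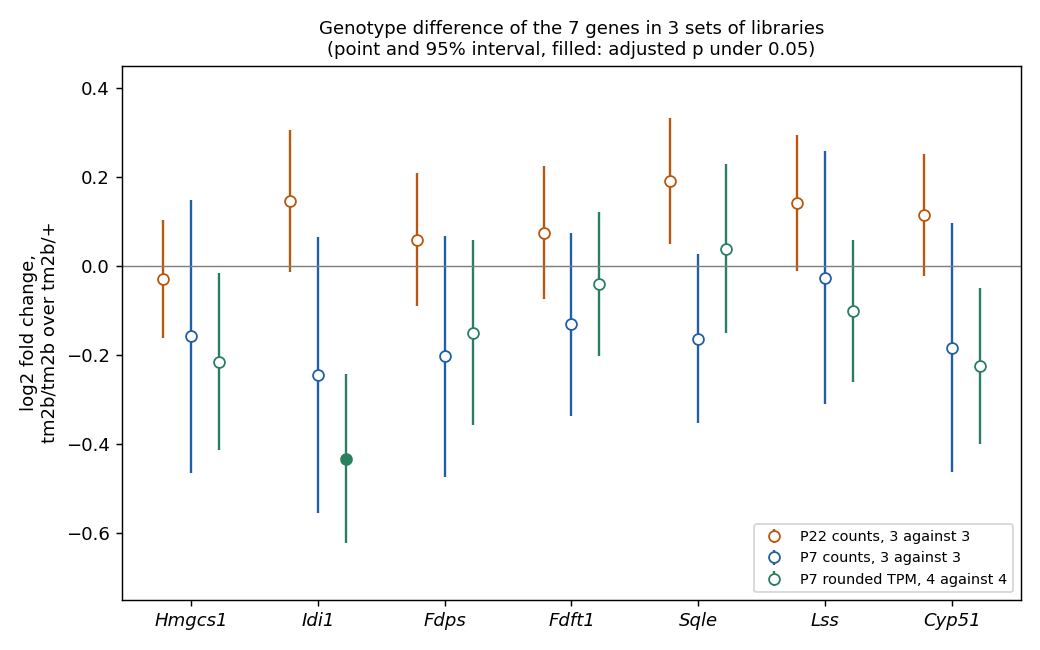
Log2 fold change of *Bai1* tm2b/tm2b over *Bai1* tm2b/+ (y axis) with 95% intervals for the 7 genes in the P22 libraries, the P7 libraries in counts and the P7 libraries in rounded TPM. The 1 filled point, *Idi1* in rounded TPM at -0.43, is the only one with an adjusted p under 0.05.

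At P7 in rounded TPM, *Idi1* was lower in homozygous libraries. It was listed at 141, 153, 148 and 127 TPM in control and at 107, 129, 123 and 97 TPM in homozygous libraries, which overlap in a single pair of libraries. On the scale of log2(TPM + 1) after TMM, tested with limma over 11740 genes, the difference was -0.43 (SE 0.0969, adjusted p = 0.0442). From the TPM as deposited, without TMM, the difference was -0.32 (adjusted p = 0.0489). Of the 7 genes 1 passed as lower, against 3.12% of all genes, and 0 as higher, against 4.63%. An unadjusted p under 0.05 was reached by 2 of 7, *Idi1* and *Cyp51*, and by 4048 of the 11740 genes. The groups did not overlap for 0 of 7 genes, against 14.8% of all genes. *Idi1* passed in 5 of 14 alternative settings, with adjusted p from 0.0255 to 0.123 and a negative sign in all 14. It lost the threshold without control replicate 2 (adjusted p = 0.0638), 3 (0.122) or 4 (0.119) and without homozygous replicate 2 (0.123), 3 (0.0814) or 4 (0.114). The P7 libraries in counts gave -0.24 (adjusted p = 0.894) and the P22 libraries 0.15 (adjusted p = 0.270) for the same gene.

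The 6 others ranged from -0.23 for *Cyp51* (SE 0.0894, adjusted p = 0.109) and -0.22 for *Hmgcs1* (SE 0.102, adjusted p = 0.162) to 0.04 for *Sqle*, and none passed. Of all genes tested, 3.12% were lower and 4.63% higher, for this and the lists below, and the groups of 14.8% did not overlap. Of the 15 other synthesis genes, 4 were lower and all of their groups overlapped: *Msmo1* (134 to 112 TPM, -0.38, adjusted p = 0.0449), *Mvd* (-0.28), *Tm7sf2* (-0.28) and *Sc5d* (-0.24, adjusted p = 0.0491). These 4 were named after their values were seen, and each passed in 3 or 4 of 14 alternative settings. *Dhcr7* (0.03) did not pass. No control gene passed, with *Srebf2* at 0.22 and *Insig1* at -0.18, and of the uptake genes *Lrp1*, a large lipoprotein receptor, was higher (39.8 to 62 TPM, 0.51, adjusted p = 0.0433). Of the 17 myelin genes 1 was lower, and *Mbp* (-0.45, adjusted p = 0.0832) and *Pmp22* (-0.18) did not pass. *Lrp1* passed in 5 of the 14 alternative settings. The summed myelin level was 18813 to 22683 TPM in control and 13168 to 25866 TPM in homozygous libraries. Among the other markers, 2 of 5 tested central glia genes were lower (sums 217 to 332 against 180 to 226 TPM, with *Hapln2* at 0 in the homozygous group), and 1 of 10 neuron, 1 of 9 hair cell and 2 of 7 supporting cell genes were higher. Their part in the values of the sterol genes was not tested.

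Whether the genotype difference itself changed between the ages was tested as an interaction over the 12 libraries in counts. No member passed, and 0.0306% of all genes did (5 of 16314). The fitted interactions of the 7 genes ranged from 0.15 (*Hmgcs1*) to 0.41 (*Idi1*), with *Sqle* at 0.37 (SE 0.136, adjusted p = 0.369). An unadjusted p under 0.05 was reached by 1 of 7, *Sqle*, and by 1666 of all genes, and the DESeq2 Wald test passed 0 of 7. The 95% intervals were wide, from -0.22 to 0.51 for *Hmgcs1*.

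The 7 genes varied together from library to library within groups. After the group means were removed, the correlation between members over the 12 libraries in counts had a median of 0.778 over 21 pairs, from 0.307 (*Sqle* and *Lss*) to 0.970, and over the 8 libraries in rounded TPM a median of 0.872. These points share library preparation, depth and tissue make-up. In P7 control replicate 6 all 7 genes were above their group mean, by 0.19 on the log2 scale on average, and in P7 homozygous replicate 6 all 7 were below it, by -0.23. Both are also the extremes of depth, at 58807173 and 31108551 counts. In rounded TPM, homozygous replicates 2 and 3 had all 7 genes above (0.16 and 0.14) and replicates 1 and 4 all 7 below (-0.17 and -0.12). The within-group SD of single genes on the log2 scale was 0.13 (*Sqle*) to 0.19 (*Idi1*) in counts, beside a median of 0.15 over all genes. In rounded TPM it was 0.11 (*Lss*) to 0.18 (*Fdps*), beside a median of 0.12, and *Lss* alone of the members was below that median.

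The myelin list went up and down in the same libraries. Its mean deviation had a correlation of 0.854 with that of the 7 genes over 12 libraries in counts and of 0.904 over 8 in rounded TPM. In homozygous replicate 6 at P7 it was -0.65, and in homozygous replicates 2 and 3 in rounded TPM 0.34 and 0.36. In counts, the 6 P22 libraries lay between -0.08 and 0.06 on the myelin list, so nearly all of its spread was among the 6 P7 libraries. For the neuron list the correlation was 0.476 and 0.423, for the hair cell list -0.628 and 0.627, and for the supporting cell list -0.619 and 0.0694, so that the correlation with hair cell markers had opposite signs in the 2 sets. For the 15 other synthesis genes it was 0.925 and 0.897.

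**Figure D4:**
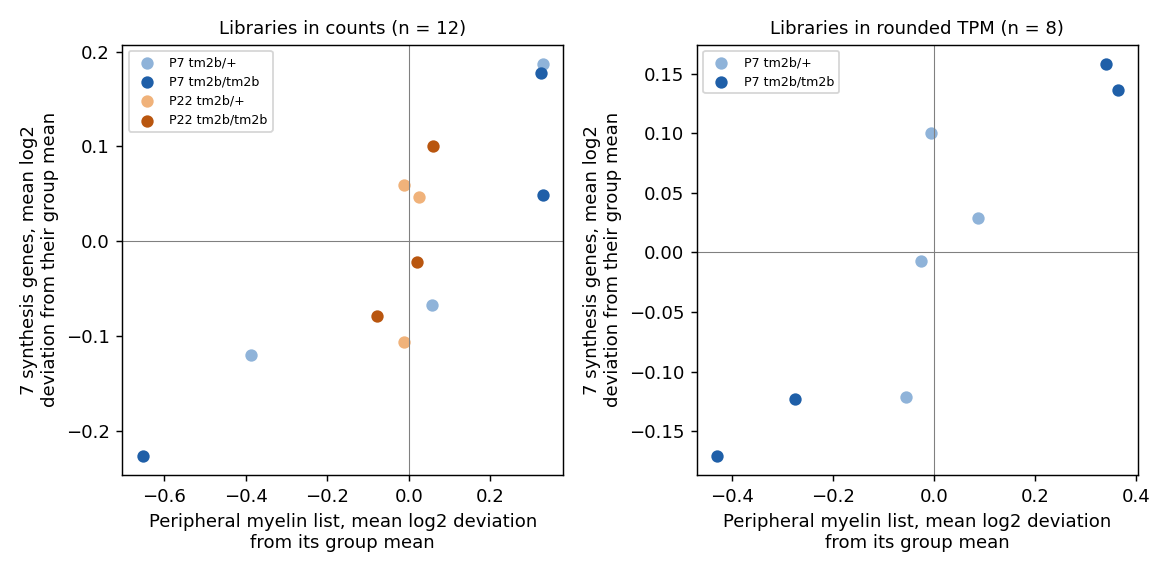
Mean log2 deviation of the 7 genes from their group mean (y axis) against that of the 17 myelin genes (x axis), in the 12 libraries in counts (left) and the 8 in rounded TPM (right). Points are libraries, colored by group. The P22 libraries lie near 0 on the x axis, and the P7 libraries spread along it, from -0.65 to 0.36.

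Single genes with the pattern most like the mean of the 7 members were taken as the 10 highest Pearson correlations over the 12 libraries in counts, members left out. They were *Pea15a* (0.971), *Dusp3* (0.962), *Ppt2* (0.954), *Dmwd* (0.951), *Sox8* (0.948), *Gm2027* (0.945), *Pla2g16* (0.937), *Ntsr2* (0.932), *Mpp6* (0.928) and *AU021092* (0.923). None of these 10 is in a list of sterol or fatty acid genes, but such genes followed closely, with *Msmo1* at rank 12 (0.921) and *Fads1*, of the fatty acid list, at rank 24 (0.903). The 15 other synthesis genes had a median of 0.656, from -0.450 to 0.921. The median over all 16307 other genes was 0.028. Without P7 control replicate 6 and homozygous replicate 6, the libraries farthest from the median, the values of the 10 genes were 0.851 to 0.944. By Spearman correlation, 8 of the 10 were again among the 10 highest. In rounded TPM, where 8 of the 10 could be compared, 0 were among the 10 highest, with *Pea15a* at rank 22 (0.957) and *Sox8* at rank 259 (0.877). *Mfap3l* and *Ston1* were among the highest there. The 10 highest in rounded TPM also held genes of the other synthesis and fatty acid lists, among them *Acaca* of the fatty acid list at rank 4 (0.978).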

How the data were processed

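RNA of the apical coil was sequenced from pools of 4 mice in 20 libraries. The authors made poly A libraries, mapped reads to mm10 with the nf-core pipeline (STAR and Salmon in the submitters' processing notes) and deposited estimated counts per gene for P22 and for P7 replicates 5 to 7, without normalization. P7 replicates 1 to 4 were deposited as whole-number scores with the totals of rounded TPM, so their depth is unknown and no count test was run on them. Versions, annotation and strand are not given in the sources used here.

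Before testing, fractional counts were rounded. Counts were then filtered in R 4.3.3 with filterByExpr, scaled by TMM and tested in edgeR 4.0.16 by quasi-likelihood, for genotype within P22, genotype within P7, and age and its interaction with genotype in 1 fit of 12 libraries. Rounded TPM were tested with limma 3.58.1 on log2(TPM + 1) after TMM, keeping genes whose mean reached 5 TPM, so fold changes of low genes are understated. All p values were adjusted over all genes tested by the Benjamini-Hochberg method, with a threshold of 0.05. A call also required a log2 fold change over 0.5 and an SE under 0.5. Intervals at 95% are 1.96 SE either way. They make no allowance for the small number of libraries and are narrower than the tests would give. For *Hmgcs1* in rounded TPM the interval was -0.41 to -0.02, while the unadjusted p of limma was 0.0597. Correlations used log2 CPM with a prior count of 2. Alternatives were DESeq2 1.42.0, other scalings, filters and pseudocounts (0.5 and 4), removal of a trend on transcript length, each genotype alone, the replicate number as a block and each library left out. Each fit was tested on simulated data. Exon lengths and overlaps came from the GENCODE vM21 annotation of GRCm38, and promoter windows from RefSeq.

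The members, lists and tests were chosen with earlier results of these data known. From each list, up to 4 genes are named per comparison, those with the largest change among those that passed without overlap of the groups (the most abundant where fewer than 2 passed), together with *Insig1*, *Srebf2*, *Dhcr7*, *Mbp* and *Pmp22*. Others were named after their values were seen, and some listed genes are counted but not reported by name here. The markers were also summed for erythroid, neutrophil, macrophage and adipocyte genes. Between the ages these gave 4 of 6, 1 of 6, 0 of 4 and 0 of 1 tested genes higher and 0, 0, 3 and 0 lower. *Hbb-bs* was at 0 in homozygous libraries in counts, and *Plin1*, *Adipoq* and *Cidec* were at 0 in all P7 libraries in rounded TPM.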

Additional observations from a re-analysis of the deposited data

How the results depend on the processing

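Across the alternatives, the 7 genes gave 74 of 77 unchanged results for the P22 genotype difference, 74 of 77 for P7 in counts, 83 of 98 for P7 in rounded TPM, 114 of 126 for age and 119 of 119 for the interaction. With library totals, age gave values of the other sign for *Idi1* (-0.22, not past the threshold), *Sqle* (-0.26), *Cyp51* (-0.23), *Srebf2* (-0.24) and *Dhcr7* (-0.26). In that setting 3 members passed the threshold as lower, and none of them met the size limit of a call. The 1 member called was *Fdft1*, as higher (0.53). The median of all genes moved by -0.29. The same scaling gave 1235 genes higher and 726 lower at P22, against 779 and 1125. In rounded TPM the count of members past the threshold as lower was 0 without the filter on low values, with the length trend removed and with the replicate block, and 0 genes of all passed in either direction under these 3 settings, against 543 higher and 366 lower. The TPM as deposited gave 1407 higher and 132 lower, with the median of all genes moved by 0.11. DESeq2 gave 56 higher and 4 lower at P7 in counts, and 46 higher and 127 lower for the interaction, where edgeR gave 0 and 5. Without the filter on low counts 1 gene was higher in the interaction. The causes were not tested.

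With each library left out in turn, the P22 fit gave 211 to 805 genes higher and 419 to 1303 lower, lowest without *Bai1* tm2b/+ replicate 1, and it fell by over 1.5 times in at least 1 direction also without *Bai1* tm2b/+ replicate 3 (373 and 602) and *Bai1* tm2b/tm2b replicates 2 (330 and 645) and 3 (510 and 558). In rounded TPM it gave 0 to 1485 higher, 0 to 1260 lower and 0 to 1 members lower, with 0 in all 3 without *Bai1* tm2b/+ replicates 2, 3 or 4 or *Bai1* tm2b/tm2b replicates 2, 3 or 4, and the highest counts without *Bai1* tm2b/tm2b replicate 1. Without *Bai1* tm2b/+ replicate 1, 654 were lower. The interaction gave 0 to 41 higher and 0 to 71 lower, highest without P7 *Bai1* tm2b/tm2b replicate 5, while 0 were lower without P22 *Bai1* tm2b/+ replicates 1 or 3, P22 *Bai1* tm2b/tm2b replicate 3, P7 *Bai1* tm2b/+ replicate 7 or P7 *Bai1* tm2b/tm2b replicates 6 or 7. No member passed or lost a call in these interaction fits. For age, *Hmgcs1*, *Fdps* and *Fdft1* passed without any single library.

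The replicate numbers are not stated to pair pools. Samples with the same number deviated together with correlations of 0.0643, 0.0245 and 0.0355 at P22, where every number correlated best with itself, of -0.0478 to 0.0586 at P7 in counts and of -0.231 to -0.0116 in rounded TPM. With the replicate number as a block, 625 genes were higher and 861 lower at P22, 0 at P7 in counts and 0 in rounded TPM, and 1 was higher and 1 lower in the interaction.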
